A study of Mus musculus with 6 samples.

Results

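Mature B lymphocytes in the lung were followed through 9 genes whose products make up the B cell receptor or mark B cell identity. The genes are Ighm, Ighd, Cd79a, Cd79b, Pax5, Ms4a1, Cd22, Fcer2a and Cr2. They were taken by symbol as known genes of mature B cells, with earlier results of these data known. All 9 were found among the 56262 genes of the deposited table and had enough counts to be tested. Paired-end RNA-seq was run on lung tissue of littermates at 8 weeks of age, 3 of them R/R and 3 WT. No treatment is stated for these mice. R/R mice carry the RBM47 K329R;K332R substitutions on both alleles in every tissue, introduced by CRISPR/Cas on the C57BL/6 background. The WT mice carry neither substitution. The question was whether the 9 genes were lower in R/R lungs and, if so, whether they were lower by one factor, as a change in the number of B cells alone would give.

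A B cell recognizes antigen with a membrane immunoglobulin. Naive cells carry it as IgM and IgD, which are spliced from one heavy chain transcript, and the signal is passed into the cell by the heterodimer of CD79A and CD79B. Coreceptors and inhibitory receptors on the same membrane tune this signal, and the transcription factor PAX5 keeps B cell genes on. Lungs hold B cells in the capillary blood, in the interstitium and in small lymphoid aggregates. In bulk RNA from lung tissue, fewer B cells and less RNA per B cell cannot be told apart.

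Libraries held 16815020 to 18071818 read pairs assigned to genes for R/R lungs and 16501092 to 18141067 for WT lungs. One count corresponded to between 0.0552 and 0.0607 normalised counts (CPM, counts scaled to the library size). The 9 genes together held between 3229 and 6400 counts in a lung, and the smallest single count was 100 (Cr2 in WT replicate 3), where counting error alone is 10%. Rbm47 itself overlapped between the genotypes, at 32.7, 33.5 and 34.1 CPM in the R/R lungs (always in the order of replicates 1, 2 and 3) against 28.8, 30.5 and 34.4 CPM in WT, and gene counts do not show the altered codons. The quasi-likelihood test of edgeR was fitted to all 17120 genes with enough counts, and genes with a Benjamini-Hochberg adjusted value under 0.05 were called.

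Promoter windows of 5 of the 9 genes (Cd79a, Pax5, Cd22, Fcer2a and Cr2) were found in the RefSeq sequences for GRCm38.p6. Stretches are shown for Cd79a, which was lower in every R/R lung, and for Cr2, the single gene of the 9 whose genotypes overlapped. Both lie before the start of the gene in the deposited annotation, at chr7:24897247-24897380 (plus strand) for Cd79a and at chr1:195176720-195176969 (minus strand) for Cr2. Capitals mark matches to the E box CAGGTG and the ETS motif GAGGAA on either strand.
Cd79a: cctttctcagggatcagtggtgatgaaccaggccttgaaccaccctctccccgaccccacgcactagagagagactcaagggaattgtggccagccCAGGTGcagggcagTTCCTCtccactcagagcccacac
Cr2: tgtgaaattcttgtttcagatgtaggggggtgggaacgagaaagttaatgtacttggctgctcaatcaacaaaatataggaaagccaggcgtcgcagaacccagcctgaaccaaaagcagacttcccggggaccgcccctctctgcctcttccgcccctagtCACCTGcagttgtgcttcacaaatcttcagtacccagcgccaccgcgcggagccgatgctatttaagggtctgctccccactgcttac

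Over the 250 bases before each start, the E box letters occurred in 17.2% and the ETS letters in 23.3% of the 32851 windows of all genes. Among the members, the E box letters occurred in windows of Cd79a, Cd22, Fcer2a and Cr2, and the exact ETS letters GAGGAA only in that of Cd79a. The octamer ATGCAAAT, known from immunoglobulin promoters, occurred in 1.6% of all windows and in 0 of the 7 windows of the members, which include no immunoglobulin gene. A perfectly palindromic form of the motif of the B cell factor EBF1 occurred in 0.779% of all windows and once among the members, in the window of Cd22. Imperfect palindromes of this motif were not searched, so the search cannot show that Cd79a or another member lacks an EBF1 site. Only these exact letters were searched, so a window without a match may hold another form of the same site. These matches describe the letters in the windows and do not show binding.

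All 9 genes were lower in R/R lungs by their fitted fold change, with a median log2 fold change of -0.61, which is 65.3% of the WT level. Of the 9, 6 fell at an adjusted p of 0.05 (Ms4a1, Ighd, Cd79a, Ighm, Pax5 and Fcer2a), where 1.1% of all genes tested were called lower. For 8 of the 9, no R/R lung reached the lowest WT lung, a pattern that 9.5% of all genes tested showed. The median log2 fold change of all genes tested was 0.00. At an unadjusted p under 0.05 (edgeR), 1314 of the 17120 genes tested were lower and 1119 higher in R/R lungs. These shares are the background for the counts of every list below in the fit with all lungs. The lungs of a genotype are described as biological replicates. The edgeR p-values test the genotype difference against the spread between them, which is moderated across genes.

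**Figure D1:**
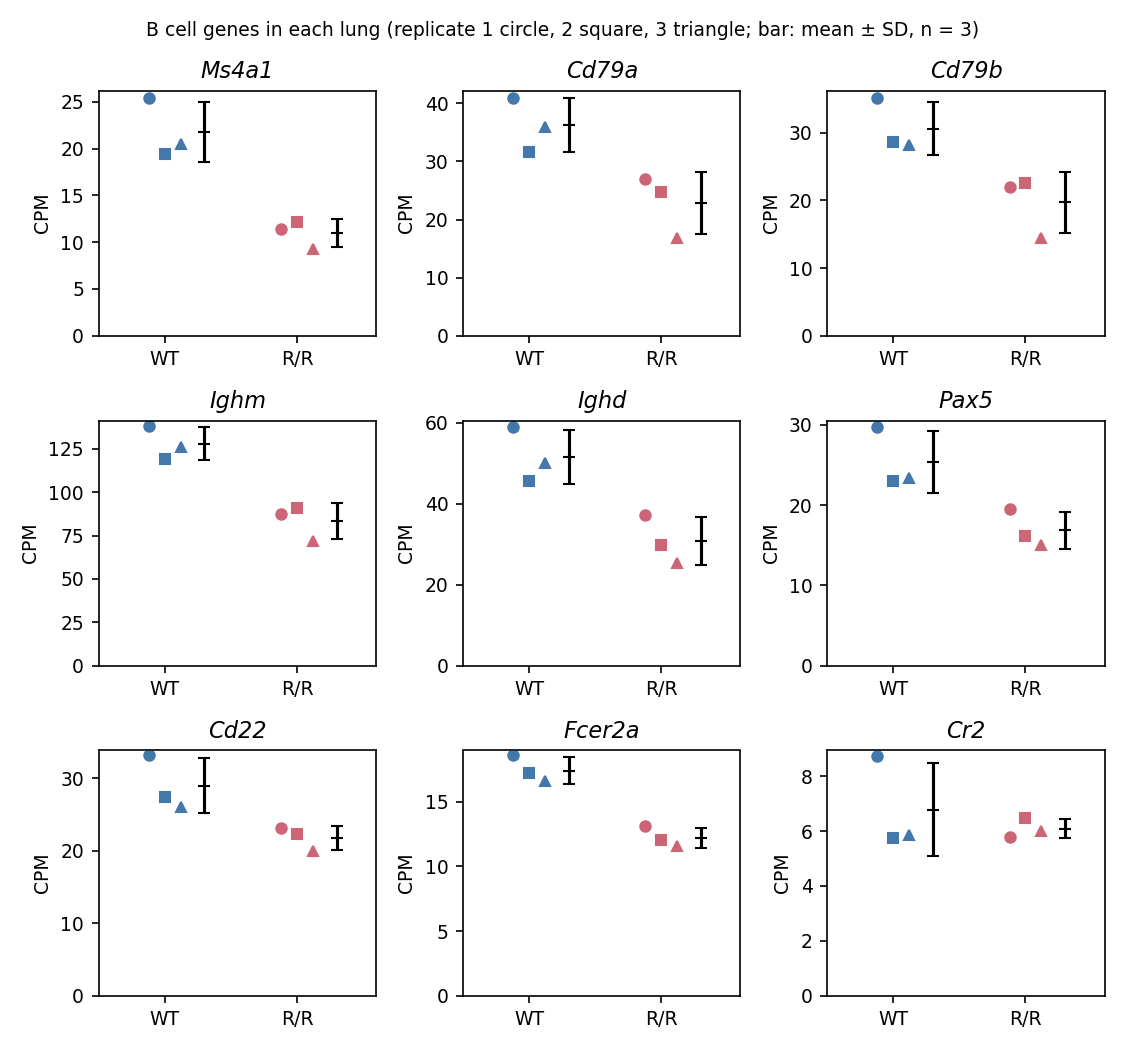
Level of each of the 9 B cell genes in CPM (y axis from 0) in WT (blue) and R/R (red) lungs. Points are single lungs, with replicate 1 as a circle, 2 as a square and 3 as a triangle, and bars give mean ± SD (n = 3). The genotypes are separated in every panel except that of Cr2, where WT replicate 1 at 8.75 CPM stands above the other lungs.

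Ighm, the constant region gene of the IgM heavy chain, was the most abundant member. It was at 87.5, 90.7 and 71.7 CPM in R/R lungs and at 138, 119 and 126 CPM in WT lungs. The highest R/R lung was below the lowest WT lung by more than the range within R/R lungs. The log2 fold change was -0.61 (standard error, SE, 0.09, edgeR adjusted p = 0.00893), or 65.3% of WT with a 95% interval from 57.2% to 74.6%. Ighm (ENSMUSG00000076617.9) spans 113418558 to 113422730 of chromosome 12 on the minus strand (GRCm38). Counts per gene do not separate its membrane form from its secreted form.

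Ighd, the constant region gene of IgD, lies beside Ighm (ENSMUSG00000104213.5, 113406604 to 113416324 of chromosome 12). Its levels were 37.2, 29.8 and 25.3 CPM in R/R lungs and 58.9, 45.6 and 50.2 CPM in WT lungs, again without overlap. The log2 fold change was -0.74 (SE 0.13, edgeR adjusted p = 0.0202), and the call was lost when R/R replicate 2 or 3 or WT replicate 1 was left out (adjusted p between 0.0627 and 0.0981). Both heavy chain genes therefore were lower in every R/R lung. The ratio of Ighm to Ighd counts was 2.74 ± 0.354 in R/R lungs and 2.49 ± 0.134 in WT lungs (SD, n = 3 each), and the groups overlapped (p = 0.3 by an exact permutation test, two-sided, whose smallest p with 3 lungs a group is 0.1).

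The signaling pair of the receptor had fold changes of similar size. Cd79a (ENSMUSG00000003379.7, chromosome 7, plus strand, 24897381 to 24902197) was at 26.9, 24.7 and 16.8 CPM in R/R lungs and at 41.0, 31.7 and 35.9 CPM in WT lungs, with a log2 fold change of -0.67 (SE 0.15, edgeR adjusted p = 0.0491). This call was close to the threshold and was lost, with adjusted p up to 0.198, when R/R replicate 2 or 3 or WT replicate 1 or 2 was left out. Cd79b (ENSMUSG00000040592.11, chromosome 11, minus strand, 106311341 to 106314762) was at 21.9, 22.6 and 14.5 CPM in R/R lungs and at 35.2, 28.6 and 28.2 CPM in WT lungs. Its log2 fold change was -0.64 (SE 0.15), and its adjusted p of 0.0593 (edgeR) missed the threshold although no R/R lung reached a WT lung. In both genes R/R replicate 3 was the lowest of the 6 lungs. The ratio of Cd79a to Cd79b counts was 1.16 ± 0.0664 in R/R lungs and 1.18 ± 0.0847 in WT lungs (SD, n = 3 each, exact two-sided permutation test, p = 0.7).

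Pax5 (ENSMUSG00000014030.15, chromosome 4, minus strand, 44524757 to 44710487) encodes the transcription factor that commits cells to the B lineage. It was at 19.5, 16.2 and 15 CPM in R/R lungs and at 29.8, 23.0 and 23.4 CPM in WT lungs. The log2 fold change was -0.58 (SE 0.13, edgeR adjusted p = 0.0434). Pax5 was not called when R/R replicate 2 or 3 or WT replicate 1 or 2 was left out (adjusted p between 0.0666 and 0.17). The counting used no strand, and 2 genes on the opposite strand overlap 1.41% and 7.18% of the exon bases of Pax5, with 3 and 9 counts over all lungs.

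Ms4a1 (ENSMUSG00000024673.9, chromosome 19, minus strand, 11249675 to 11266241) encodes CD20, a membrane protein of B cells from the pre-B stage until they become plasma cells. It was at 11.4, 12.2 and 9.31 CPM in R/R lungs and at 25.4, 19.4 and 20.5 CPM in WT lungs. The R/R lungs spanned less than 3 CPM, and the gap to the lowest WT lung was larger than that. The log2 fold change was -0.99 (SE 0.13, edgeR adjusted p = 0.00675), or 50.3% of WT with a 95% interval from 41.1% to 61.5%. Among the 9 genes this was the largest fitted difference.

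Cd22 (ENSMUSG00000030577.14, chromosome 7, minus strand, 30865402 to 30880342) encodes a sialic acid-binding receptor that dampens B cell receptor signaling. Its levels of 23.2, 22.3 and 20.0 CPM in R/R lungs lay below those of 33.2, 27.5 and 26.1 CPM in WT lungs. The log2 fold change was -0.41 (SE 0.10, edgeR adjusted p = 0.0817), which missed the threshold. Fcer2a (ENSMUSG00000005540.10, chromosome 8, minus strand, 3681737 to 3694175) encodes CD23, the low-affinity IgE receptor of follicular B cells. It was at 13.1, 12.0 and 11.6 CPM in R/R lungs and at 18.6, 17.2 and 16.6 CPM in WT lungs, with a log2 fold change of -0.51 (SE 0.10, edgeR adjusted p = 0.0341). The spread within each genotype was small for Fcer2a, with an SD of 0.781 CPM for R/R and 1.04 CPM for WT. Fcer2a was not called when R/R replicate 2 or 3 or WT replicate 1 or 2 was left out (adjusted p between 0.0925 and 0.148).

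Cr2 stood apart from the other genes. The gene (ENSMUSG00000026616.16, chromosome 1, minus strand, 195136811 to 195176716) encodes complement receptor 2 (CD21) and, by alternative splicing in mice, complement receptor 1, which are carried by B cells and also by follicular dendritic cells. Cr2 was at 5.77, 6.46 and 6.01 CPM in R/R lungs and at 8.75, 5.74 and 5.85 CPM in WT lungs. Only WT replicate 1 was above the R/R lungs. The log2 fold change was -0.16 (SE 0.19, edgeR adjusted p = 0.78), with a 95% interval from 67.7% to 119% of WT, and without WT replicate 1 it was 0.07. Of a list of genes of follicular dendritic cells and lymph node stroma, 4 of 9 had enough counts to be tested, and their median log2 fold change was 0.09 with overlapping lungs in each. Chst4 was at 0.77 (adjusted p = 0.353), Enpp2 at 0.18 (adjusted p = 0.352) and Fcamr at -0.08 (adjusted p = 0.937, edgeR), so the larger differences were toward higher values in R/R lungs, and none passed the threshold. The summed level of the list was 85.1 to 103 CPM for R/R and 78.4 to 90.9 CPM for WT, most of it from Enpp2, and its part in the level of Cr2 was not tested. Cxcl13 was at 0.589 to 0.837 CPM in R/R lungs and at 0.662 to 0.79 CPM in WT lungs, Ccl21a had 1 count in 1 R/R lung and 0 in the other 5 lungs, and Glycam1 had 0 counts in all 6 lungs.

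Per kilobase of exon, the mean levels in WT lungs were 67.7 CPM for Ighm, 27.1 for Ighd, 24.9 for Cd79a and 21.4 for Cd79b. The other 5 genes were far lower, from 5.74 CPM per kilobase for Cd22 and 5.64 for Fcer2a down to 0.832 for Cr2. In R/R lungs the order by mean was the same, except that Pax5, at 1.91 CPM per kilobase, was above Ms4a1 at 1.77, while in WT lungs Pax5 at 2.87 was below Ms4a1 at 3.52. Several neighbours in this order overlapped between lungs of the same genotype, namely Ighd with Cd79a, Cd79a with Cd79b, Cd22 with Fcer2a and Ms4a1 with Pax5. Ighm above Ighd, Cd79b above Cd22, Fcer2a above both Ms4a1 and Pax5, and these above Cr2 were steps without overlap.

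The genes also followed each other from lung to lung. WT replicate 1 had the highest level among WT lungs for all 9 genes, and R/R replicate 3 had the lowest level among R/R lungs for 8 of the 9, the exception being Cr2. With the genotype means removed, the correlation of log2 CPM over the 6 lungs had a median of 0.80 over the 36 pairs of genes, from 0.39 to 0.97. These correlations describe 6 lungs, and the points share library and scaling.

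The 95% interval of the fold change covered the median of the other 8 genes in 7 of the 9 genes. The exceptions were Ms4a1, whose interval from -1.28 to -0.70 lay below, and Cr2, whose interval from -0.56 to 0.25 lay above. Within each lung, Ms4a1 took 4.62%, 5.15% and 4.89% of the counts of the 9 genes in R/R replicates 1, 2 and 3 and 6.55%, 6.12% and 6.18% in WT replicates 1, 2 and 3. Cr2 took 2.34%, 2.72% and 3.16% in R/R lungs and 2.25%, 1.81% and 1.76% in WT lungs. Neither share overlapped between the genotypes. Ighm, the largest contributor, took 37.2% ± 1.47 in R/R lungs and 36.9% ± 1.28 in WT lungs (SD, n = 3 each).

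Relative to the mean log2 CPM of the other 8 genes in the same lung, and with the WT mean set to 0, Ms4a1 was at -0.53, -0.35 and -0.46 in R/R replicates 1, 2 and 3, below every WT lung. Cd22 was at 0.16, 0.17 and 0.31 and Cr2 at 0.29, 0.54 and 0.74, both above every WT lung. For each of these 3 genes the exact two-sided permutation test gave p = 0.1, the smallest that 3 lungs against 3 allow. Cd79a, Cd79b, Ighm, Ighd, Pax5 and Fcer2a overlapped between the genotypes on this scale, with R/R means between -0.18 and 0.09. These ratios are not independent, since a gene that departs shifts the reference of the others.

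**Figure D2:**
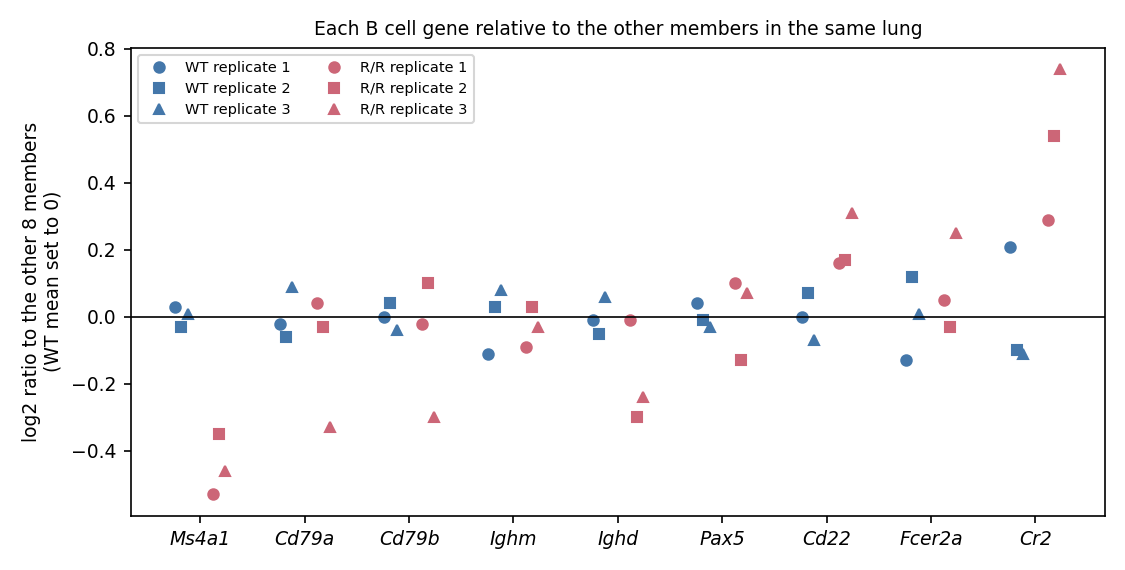
Log2 ratio of each B cell gene to the mean of the other 8 in the same lung (y axis, WT mean set to 0), for WT (blue) and R/R (red) lungs, with 1 point per lung. Points near 0 mean that a gene kept its proportion to the others, as Ighm did, while the R/R points of Ms4a1 lie below and those of Cd22 and Cr2 above all WT points.

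A second reference was formed from 10 other B cell genes (among them Blk, Bank1, Fcmr, Fcrla, Fcrl1, Cxcr5, Spib, Pou2af1 and Cd72). These too were chosen with earlier results of these data known. The fold change was negative for all 10, with -0.58 as the median on the log2 scale (66.8% of WT), 8 of them had no R/R lung at or above a WT lung, and 3 fell at an adjusted p of 0.05 (edgeR). Among these were Spib, an ETS factor of B cells and plasmacytoid dendritic cells (log2 fold change -1.08, adjusted p = 0.0111), and Pou2af1, a coactivator of octamer-binding factors (-0.69, adjusted p = 0.0395). Spib was at 11.7, 10.4 and 9.66 CPM in R/R lungs and at 29.3, 18.5 and 19.5 CPM in WT lungs. Cd72, an inhibitory coreceptor, had the smallest difference of the 10, at -0.17 (adjusted p = 0.692, edgeR). The fold changes within the reference thus ran from -1.08 to -0.17, against -0.99 to -0.16 within the 9 genes.

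**Figure D3:**
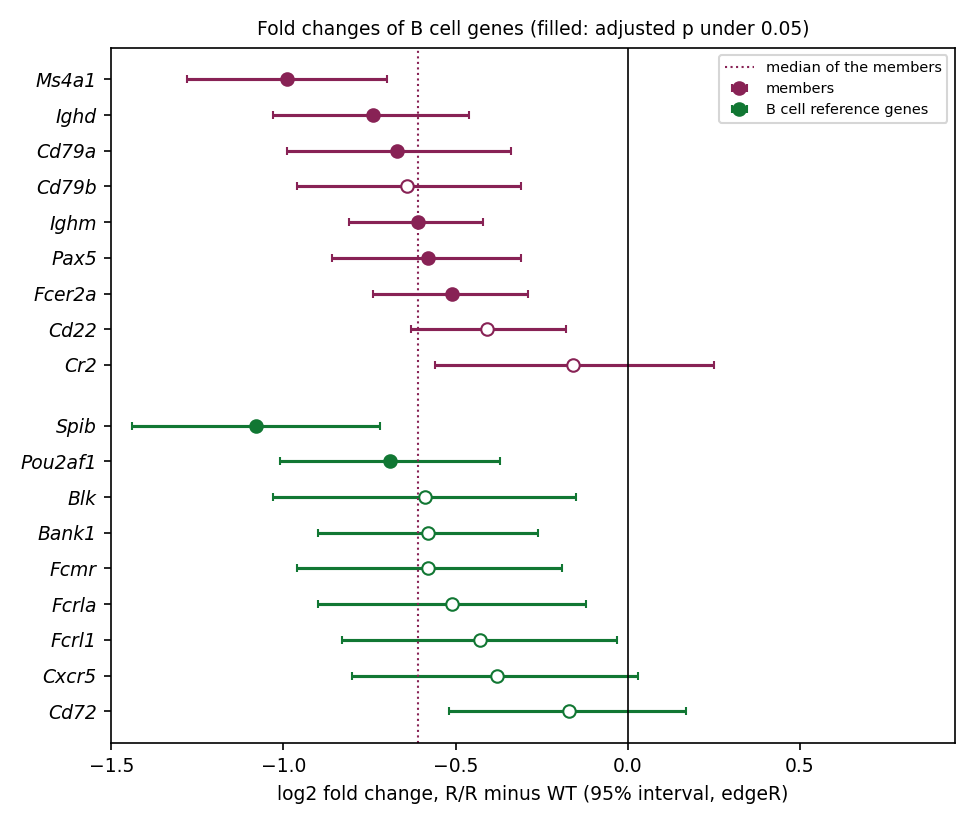
Log2 fold change of R/R minus WT lungs with its 95% interval from edgeR for the 9 members (purple) and 9 of the 10 reference B cell genes (green), where filled points passed an adjusted p of 0.05. The dotted line is the median of the members at -0.61, which 7 of the 9 member intervals cover, with Ms4a1 to the left and Cr2 to the right.

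When the edgeR test was repeated with each lung scaled to the reference, 0 of the 9 genes were called, and 0 were at an unadjusted p under 0.05. In that fit 72.8% of all genes tested were called, 12411 of them higher and 55 lower in R/R lungs. Since the reference is lower in R/R lungs, a gene with no change comes out higher than it (median log2 fold change of all genes 0.61). In fits scaled to this reference, the share of all genes called is therefore no background rate for the members. The fold changes of the 9 genes relative to the reference ran from -0.39 for Ms4a1 (95% interval from -0.79 to 0.01, adjusted p = 0.0733) to 0.47 for Cr2 (from -0.03 to 0.96, adjusted p = 0.0842). The other 7 lay between -0.15 and 0.20, all with intervals covering 0. Ighm was at -0.02 (from -0.35 to 0.31) and Cd79a at -0.08 (from -0.45 to 0.28).

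The spread in this scaled fit was wide, with a common coefficient of variation of 15.9% against 8.62% without the scaling, over the same 17120 genes. With limma-voom, the same reference and the spread prior of the fit without it, an alternative added after the first results were seen, 3 of the 9 were called, in a fit that called 75.8% of all genes tested. Ms4a1 was lower than the reference by a log2 difference of -0.39 (adjusted p = 0.00462, interval from -0.61 to -0.17), and Cr2 (0.47, adjusted p = 0.0206) and Cd22 (0.20, adjusted p = 0.0395) were higher. The other 6 were again not called, and the interval of Ighm was from -0.15 to 0.12. Whether Ms4a1, Cd22 and Cr2 depart from one factor thus depended on the test. For Ighm, whose unscaled fold change of -0.61 was near the reference median of -0.58, a value near 0 on this scale follows from the subtraction.

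Around the members, 59 other genes of B cell signaling, inhibition, transcription and surface were tested, some of which are also used by other leukocytes or by lung tissue. Of these, 50 had a negative and 9 a positive fold change, and the median was -0.27 on the log2 scale. With edgeR, 10 fell and 0 rose at an adjusted p of 0.05, where 189 of all 17120 genes tested fell and 111 rose. At an unadjusted p under 0.05 there were 31, 2 of them higher, against 1314 lower and 1119 higher of all genes tested. For 28 of the 59 no R/R lung reached the lowest WT lung, and for 1 no R/R lung was as low as the highest WT lung. Of all genes tested, 1627 and 1570 showed these patterns.

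Among 19 genes that carry the signal of the receptor, 15 were lower and 1 passed the threshold. Plcg2, the phospholipase downstream of the kinases, had a log2 fold change of -0.34 (adjusted p = 0.0658), and Prkcb, the protein kinase C of the NF-kB branch, one of -0.52 (adjusted p = 0.0725, both edgeR). The kinase genes differed in size: Blk was at -0.59, Syk at -0.33, Lyn at -0.15 and Btk at -0.10, and none passed the threshold. Lyn, at 132 to 156 CPM in all lungs, and Syk, at 67.7 to 108 CPM, are also expressed by myeloid cells. Of 9 inhibitory genes, Siglecg, a receptor related to CD22, fell by 0.59 on the log2 scale (adjusted p = 0.0387) and Ptpn6, the phosphatase that these receptors recruit, fell by 0.29 (adjusted p = 0.0444, both edgeR). Fcrl5 was at 0.499, 0.179 and 0 CPM in R/R lungs and at 1.09, 0.883 and 0.703 CPM in WT lungs (adjusted p = 0.181, edgeR).

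Of 16 transcription factors of B cells, 13 were lower in R/R lungs and 4 fell. Besides Spib and Pou2af1 these were Bach2, a repressor that keeps lymphocytes naive, and Ikzf3, the Ikaros family factor Aiolos. Bach2 was at 26.6, 24.4 and 29.7 CPM in R/R lungs and at 44.5, 46.1 and 42.2 CPM in WT lungs, with a log2 fold change of -0.72 (adjusted p = 0.00248, edgeR), and T cells express it too. Ikzf3 had a log2 fold change of -0.52 (adjusted p = 0.0341, edgeR). Ebf1, which acts with PAX5 in B cells and is also found in mesenchymal cells, was at -0.27 (adjusted p = 0.246, edgeR).

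Of 16 other surface and antigen presentation genes of B cells, 15 were lower and 4 fell, among them the tetraspanin gene Cd37 and the costimulatory receptor gene Cd40. The log2 fold changes were -0.53 for Cd37 (adjusted p = 0.0104) and -0.38 for Cd40 (adjusted p = 0.0444, edgeR). Cd37 was at 32.7, 29.1 and 27.3 CPM in R/R lungs and at 43.9, 42.2 and 42.7 CPM in WT lungs.

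The light chain genes complete the receptor. Igkc, the kappa constant region, was at 48.0, 54.9 and 28.8 CPM in R/R lungs and at 66.7, 91.2 and 87.9 CPM in WT lungs, a log2 fold change of -0.90 (adjusted p = 0.0371, edgeR). The lambda constant genes Iglc1, Iglc2 and Iglc3 were at -0.82, -0.67 and -0.37 on the log2 scale and did not pass the threshold, and because lambda constant genes resemble each other and multi-mapping pairs were discarded, their single levels are uncertain. The ratio of Igkc to Ighm counts was 0.518 ± 0.105 in R/R lungs and 0.65 ± 0.147 in WT lungs (SD, n = 3 each, exact two-sided permutation test, p = 0.3).

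Antibody-secreting cells also express Ighm and Igkc. Of a plasma cell list 9 of 13 genes were tested, 7 were lower and 1 fell, Ighg2b, which was at 0.538 to 0.832 CPM in R/R lungs and at 1.94 to 3.51 CPM in WT lungs (log2 fold change -2.0, adjusted p = 0.0158, edgeR). Igha was at 24.1, 37.0 and 6.18 CPM in R/R lungs and at 27.7, 99.0 and 78.6 CPM in WT lungs (adjusted p = 0.148), and Jchain at 4.83, 7.83 and 1.65 against 5.71, 16.4 and 14.9 CPM (adjusted p = 0.164, edgeR). WT replicate 1 was the lowest WT lung for both, whereas it was the highest WT lung for all 9 members. Of 7 genes of B cell precursors, 2 could be tested, Vpreb3 (log2 fold change 0.23, adjusted p = 0.698) and Il7r (-0.08, adjusted p = 0.875, edgeR), and Rag2 had 0 counts in all 6 lungs.

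Genes of other cells were also lower in R/R lungs. The 15 genes of a T cell list all had negative fold changes, the median being -0.46 (log2), and 11 of them did not overlap between the genotypes. Of these 15, 0 passed the threshold by edgeR's quasi-likelihood test with all lungs and 9 were at an unadjusted p under 0.05. Without WT replicate 2, 2 passed, in a fit that called 76 of 17392 genes tested lower. Cd8a was at -0.94 (adjusted p = 0.0721), Cd5 at -0.75 (adjusted p = 0.0901) and Trbc2 at -0.73 (adjusted p = 0.0985). The summed level of the T cell list was 66.1 to 81.9 CPM in R/R lungs and 97.5 to 130 CPM in WT lungs. Of 8 genes shared by leukocytes, 7 were lower, with a median of -0.23, and 1, the GTPase gene Rac2, fell (log2 fold change -0.50, adjusted p = 0.0321, edgeR). Their summed level overlapped, from 716 to 793 CPM in R/R lungs and from 745 to 898 CPM in WT lungs. Coro1a and Cd52 were at -0.28 (adjusted p = 0.0669) and -0.35 (adjusted p = 0.0848), and Ptprc, which encodes CD45, at -0.24 (adjusted p = 0.138, edgeR).

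Red cell genes, which follow the blood left in a lung, were also lower. All 7 tested of 8 had a negative fold change, with a median of -0.67, and Hba-a1 fell (-0.78, adjusted p = 0.0478, edgeR). The summed level was 1220, 1770 and 2270 CPM in the R/R lungs and 2680, 3280 and 2470 CPM in the WT lungs, without overlap. Within each genotype the order of the lungs differed from that of the B cell genes, since R/R replicate 3 had the most red cell RNA and the least B cell RNA of the R/R lungs. The sources used here do not say whether the sequenced lungs were perfused. The part of blood content, and of the T cell, leukocyte and epithelial genes described here, in the B cell result was not tested.

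Of 9 myeloid genes, 5 were lower and 4 higher (median -0.05, log2), with 0 calls by edgeR's quasi-likelihood test (4 at an unadjusted p under 0.05, of which 3 were lower and 1 was higher). The higher one was Lyz2 of macrophages and alveolar type 2 cells, at 5290, 5030 and 5130 CPM in R/R lungs and at 3520, 4090 and 4900 CPM in WT lungs, without overlap (log2 fold change 0.30, adjusted p = 0.221, edgeR). Itgam was at -0.48 (adjusted p = 0.106), and S100a8 and S100a9 of neutrophils were both at -1.19 (adjusted p = 0.199 and 0.191) with overlapping lungs. Of 9 lung epithelial genes, which mark the tissue, 8 were higher, with a median of 0.25, and Aqp5 of alveolar type 1 cells rose (0.27, adjusted p = 0.0459, edgeR). Hopx and Sftpa1 were at 0.32 (adjusted p = 0.0773) and 0.27 (adjusted p = 0.251). Sftpc, the marker of alveolar type 2 cells, was at 12400 to 13800 CPM for R/R and 10000.0 to 12200 CPM for WT, without overlap (log2 fold change 0.25, adjusted p = 0.271, edgeR). The summed level of the epithelial list overlapped, at 35700 to 38800 CPM for R/R and 28400 to 36000 CPM for WT.

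**Figure D4:**
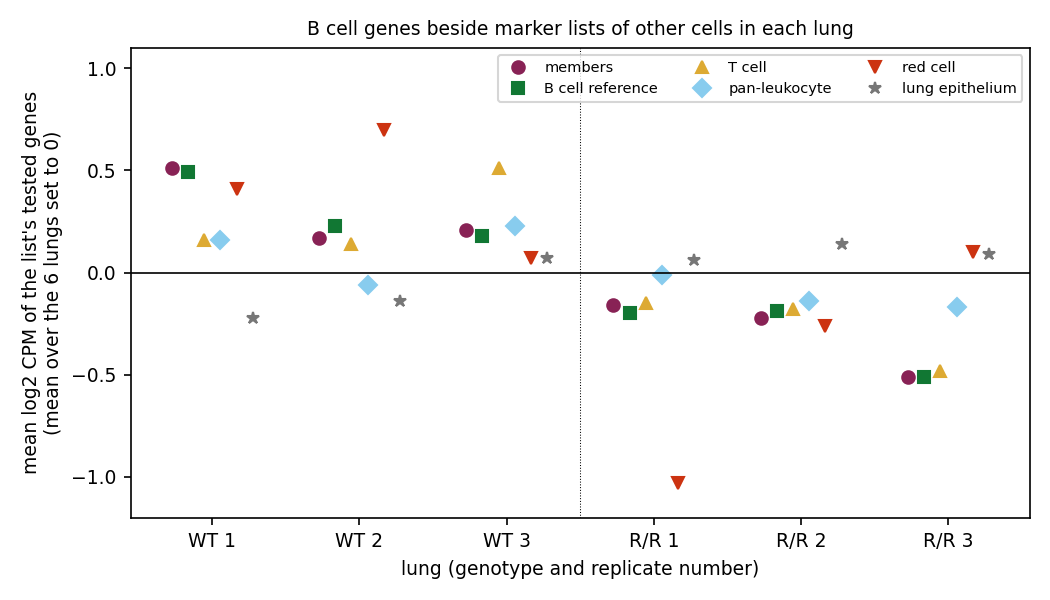
Mean log2 CPM of the tested genes of 6 lists in each lung (y axis, mean over the 6 lungs set to 0), with WT lungs left and R/R lungs right of the dotted line. The members and the B cell reference lie together in every lung, from 0.51 and 0.49 in WT replicate 1 to -0.51 and -0.51 in R/R replicate 3, while red cell genes are lowest in R/R replicate 1 at -1.03.

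Among 14072 genes outside the lists whose mean log2 CPM was 1 or more, those whose log2 CPM over the 6 lungs correlated best with the mean of the members were Add3 (Pearson's r = 0.996), Acap1 (0.995), Atp8b2 (0.995), Btla (0.993) and Pank4 (0.99). These values describe 6 lungs that fall into genotypes, and no test was attached to them. Btla, a lymphocyte inhibitory receptor, was at 18.2, 17.5 and 13.8 CPM in R/R lungs and at 27.7, 22.7 and 24.6 CPM in WT lungs (log2 fold change -0.60, adjusted p = 0.0319, edgeR). Acap1 was at -0.56 (adjusted p = 0.043, edgeR), a size near that of the members. Add3, at -0.21 (adjusted p = 0.117), Atp8b2, at -0.16 (adjusted p = 0.217), and Pank4, at -0.10 (adjusted p = 0.559, edgeR), correlated as closely but differed far less between genotypes.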

How the data were processed

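RNA-seq of 3 R/R and 3 WT lungs was used, grouped by the sample labels. Alignment by the authors was to the mm10 build with HISAT2 2.1.0, and the deposited values are raw counts per gene from featureCounts 2.0.1 (GENCODE M25, exons, no strand, no multi-mapping pairs). In preparing this report, the deposited column of WT replicate 3 was recorded as an estimated count, owing to a misread comment line. It holds raw whole counts too, and nothing was rounded. The paper's supplement names edgeR, and the submitters' notes name DESeq2.

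Symbols were matched to 55141 of 56262 identifiers by gene ID, and 1121 had no match. In R 4.3.3, edgeR 4.0.16 was used with filterByExpr (minimum count 10), TMM and the quasi-likelihood test over all genes (adjusted p 0.05). Standard errors were derived from each fold change and its F statistic. For the scaled fit, each lung's size was shifted by the mean log2 CPM (prior count 0.5) of 10 reference genes. Exact tests permuted lungs. Tests were also run on data drawn with known changes, and the outcomes are not reported here. DESeq2 1.42.0, limma 3.58.1, other filters and scalings, a block and each lung left out were alternatives.

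The 9 members and all gene lists were chosen with earlier results of these data known. Named genes are the members, the called genes of each list (filled up to 3 by smallest p) and the 5 most similar profiles. Others, such as Blk, Lyn, Btk, Syk, Ebf1, Ptprc, Cxcl13, Ccl21a, Glycam1, Lyz2 and Sftpc, were named after their values were seen. Some genes of the lists entered the counts but are not reported here by name.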

Additional observations from a re-analysis of the deposited data

How the results depend on the processing

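The median log2 fold change of the 9 members stayed between -0.61 and -0.62 under every other tool, scaling and filter on 6 lungs and between -0.70 and -0.49 with single lungs left out. The number of members called ranged from 4 (limma-voom) to 8 (DESeq2, no filter on low counts and the replicate block). All genes called also varied, at 300 with the settings of the report, 446 with the block and 1109 with no filter. For DESeq2, limma-voom and the other settings on 6 lungs this total was not recorded, so their counts of members lack a background share. With single lungs left out, the number of members called was 2 without R/R replicate 2 or 3 or WT replicate 1. It was 3 without WT replicate 2, 6 without R/R replicate 1 and 8 without WT replicate 3. In these fits all genes called lower ranged from 40 (without R/R replicate 2) to 360 (without WT replicate 3). Ms4a1 and Ighm were called each time. The other 59 B cell genes gave 10 calls with the settings of the report, 22 with no filter on low counts, and from 2 (without R/R replicate 2) to 10 (without WT replicate 3) with single lungs left out. With no filter, the edgeR prior had infinite weight, so gene-wise spreads were not used. The fold change of Cr2 ran from -0.26 to 0.07 with single lungs left out and was reversed, at 0.07, without WT replicate 1. Relative to the B cell reference, 1 member (Cr2) was called with the summed CPM of the reference, 2 (Ms4a1 and Cr2) with the replicate block and 3 with the added limma-voom fit; the cause was not tested. No other count over the members changed by more than 1.5 times. Same-numbered lungs did not deviate together (correlations -0.01, 0.00 and -0.01, with 0 of 6 lungs closest to their own number). With 3 lungs a genotype this check cannot exclude a pairing by litter or handling, and the labels give none. The smallest p of a permutation of 3 lungs against 3 is 0.1, so the exact tests could not pass the threshold.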
